A study of Mus musculus with 5 samples.

Results

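The genes described here are the 10 that carry the light response of mouse cones: the opsins Opn1sw and Opn1mw, the transducin subunits Gnat2, Gnb3 and Gngt2, the phosphodiesterase subunits Pde6c and Pde6h, the channel subunits Cnga3 and Cngb3, and the cone arrestin Arr3. They were chosen by symbol, and all 10 were found among the 24594 genes of the table. Messenger RNA was sequenced in 5 libraries of cells sorted from the mouse retina: 3 libraries labelled Zfp292-OE, given a CAG-Zfp292 plasmid, and 2 control libraries, given a CAG-GFP plasmid. In both groups the plasmid was electroporated into the eyes of pups at postnatal day 0, retinas were collected 4 days later, and cells carrying GFP were sorted, named RPC (retinal progenitor cells) by the submitters. The CAG promoter drives expression in most cell types, so neither plasmid is limited to cones or to their precursors. Neither how the cells given CAG-Zfp292 carried GFP, nor the strain, sex or number of pups behind a library, is given in the labels. The p-values therefore measure only the spread between these libraries, which may be technical.

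In a cone, light isomerises the chromophore of an opsin, the opsin activates transducin, transducin frees the catalytic phosphodiesterase from its inhibitory subunit, and the fall in cyclic GMP closes the cation channel of the outer segment. Arrestin binds the activated opsin and ends its signal. Rods run the same cascade with their own set of genes. In the mouse, cones are born before birth and most rods after it, and S opsin appears in cones earlier than M opsin.

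Between 103096224 and 137683716 reads per library were assigned to genes. The deposited values are normalised read counts, in which 1 read was worth between 0.770 and 1.14. Zfp292 itself had normalised counts of 14631, 13197 and 15534 in libraries 1, 2 and 3 labelled Zfp292-OE, against 13288 and 14756 in the controls. Its log2 fold change was 0.043 (95% interval −0.28 to 0.37, limma adjusted p = 0.87), so no rise of Zfp292 was detected and every direction below follows the labels. Among 8 progenitor markers 5 rose and 1 fell, all 6 proliferation markers rose, and all 10 rod markers fell. Over all genes tested, 10% rose and 7.38% fell. The rod markers summed to 231455, 236827 and 186840 normalised counts in the libraries labelled Zfp292-OE, against 810851 and 709660 in the controls. The progenitor markers summed to 266934, 317127 and 274579, against 182640 and 200070. Every library thus held RNA of rod markers beside that of progenitor markers. In such bulk samples fewer cells of a type and less RNA per cell cannot be told apart.

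Opn1mw, Arr3, Pde6c and Gnb3 fell in the libraries labelled Zfp292-OE, while Opn1sw, Gngt2, Cnga3 and Cngb3 had log2 fold changes between −0.38 and 0.18, and Gnat2 and Pde6h had lower means without passing the test. In limma, 4 of the 10 fell and 0 rose at an adjusted p below 0.05. Over all 16316 genes tested, 17.4% passed in either direction, 7.38% fell and 10% rose. The median log2 fold change was −0.94 for the 10 cone genes and −0.058 for all genes tested. All 3 libraries labelled Zfp292-OE lay below both controls for 5 cone genes, Opn1mw, Arr3, Gnb3, Pde6c and Pde6h, a pattern that 25.7% of all genes tested also had. With either control left out, limma called 1 gene in all and 0 of the 10, so those fits cannot tell the cone genes from other genes. An unadjusted p below 0.05 was then found for 2 of the 10 and 4390 of 16207 genes without the first control, and for 3 of the 10 and 3534 of 16192 without the second.

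**Figure D1:**
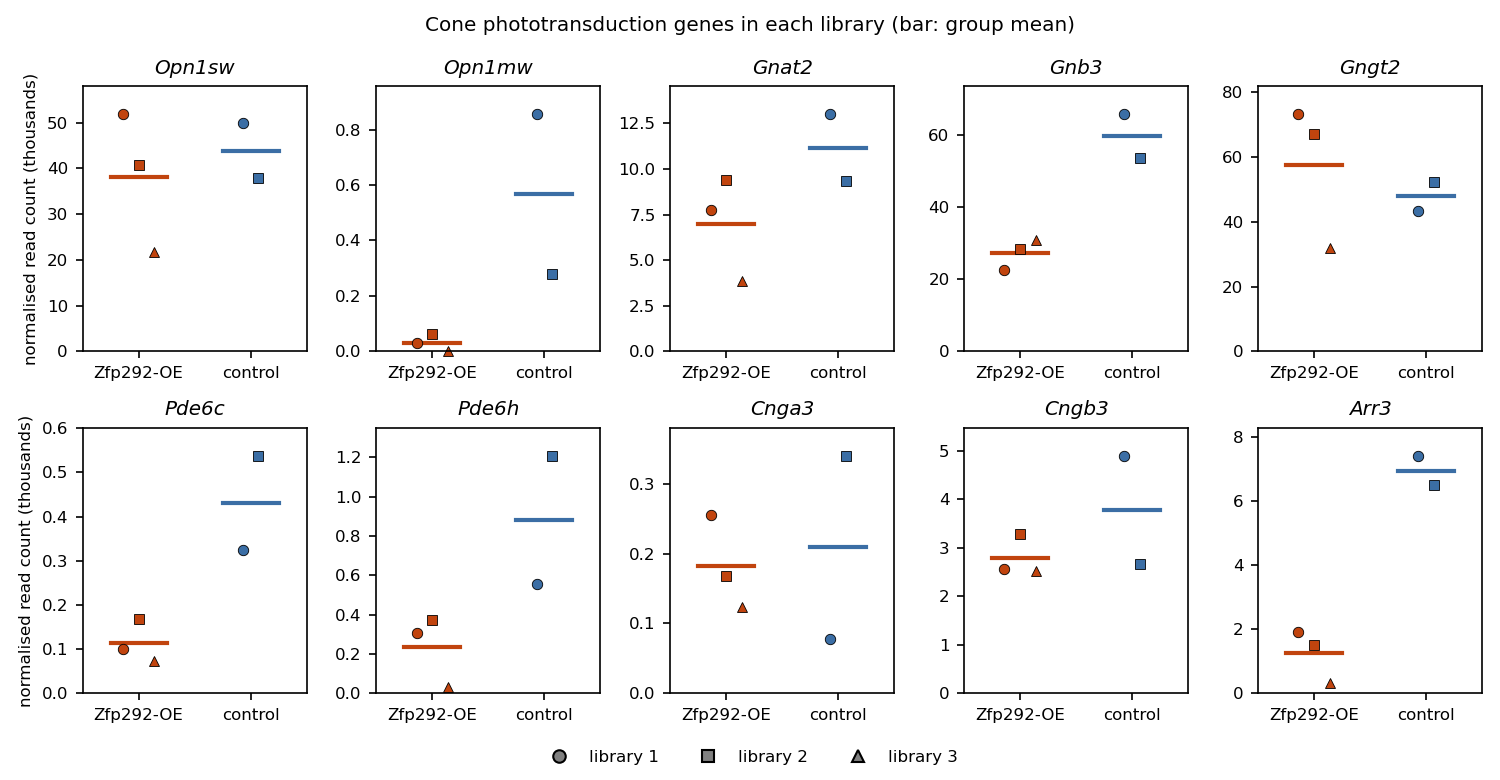
Normalised read counts (linear axes from 0) of the 10 cone genes in each library, with the 3 libraries labelled Zfp292-OE on the left of each panel and the 2 controls on the right. Symbols mark the library number and bars the group mean. The groups are apart for Opn1mw, Gnb3, Pde6c, Pde6h and Arr3. Of the other genes, library 3 labelled Zfp292-OE is the lowest of all 5 for Opn1sw, Gnat2, Gngt2 and, by a slight margin, Cngb3.

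Of the opsins, Opn1mw fell and Opn1sw did not pass. Opn1sw, the S opsin that absorbs short wavelengths (Entrez 12057, GRCm38 chromosome 6, 29376671 to 29388468, minus strand), had normalised counts of 51801, 40832 and 21775 in libraries 1, 2 and 3 labelled Zfp292-OE, against 49876 and 37935 in the controls. Library 1 stood above both controls, library 2 between them and library 3 below both. The libraries labelled Zfp292-OE averaged 38136 ± 15194 (SD, n = 3) and the controls 43906 ± 8443 (SD, n = 2). On the log2 scale the fold change was −0.28 (SE 0.30, 95% interval −0.96 to 0.40, limma adjusted p = 0.56). The interval holds falls of up to 0.515 of the control level and rises of up to 1.32-fold. Without library 3 the log2 fold change was 0.080 (limma adjusted p = 0.81, range over 15 alternatives 0.197 to 0.929).

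Opn1mw, the M opsin that absorbs middle wavelengths (Entrez 14539, chromosome X, 74127464 to 74150760), had 29.7, 61.1 and 0 in libraries 1, 2 and 3 labelled Zfp292-OE, against 854 and 278 in the controls. These values stood for 26, 65 and 0 reads, against 784 and 361. Every library labelled Zfp292-OE lay far below the lower control. The ratio of the means was 0.0534, and the log2 fold change was −5.30 (SE 1.57, limma adjusted p = 0.044). That figure is larger than the ratio of means because it averages logs and library 3 had no read, where up to 3 reads, a value of 3.14, are allowed by counting error alone. It was −3.49 without library 3, −5.95 without library 1 and −6.46 without library 2 labelled Zfp292-OE, and −4.49 and −6.11 without control libraries 1 and 2. On the recovered reads edgeR gave −4.25 and DESeq2 −4.23. The call was lost without library 1 labelled Zfp292-OE (limma adjusted p = 0.064) and without control library 1 or 2 (0.33 and 0.27), and it held in 8 of 15 alternatives, whose adjusted p ranged from 0.0115 to 0.329.

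Of all reads counted under the 2 opsins, those of Opn1mw made up 0.0572%, 0.149% and 0% in libraries 1, 2 and 3 labelled Zfp292-OE, against 1.68% and 0.728% in the controls. The Wilson 95% intervals were 0.0391 to 0.0838%, 0.117 to 0.190% and 0 to 0.0185% in the libraries labelled Zfp292-OE, and 1.57 to 1.81% and 0.656 to 0.806% in the controls. Such intervals hold counting error alone, because copies of one molecule can be read more than once. M opsin was thus the minor opsin in every library, and its share was lower in each library labelled Zfp292-OE than in either control. The controls differed from each other by more than counting error.

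Promoters are printed for the opsins, for Arr3 and for Gnat2, because these span the range from the deepest falls to no detectable change. They are RefSeq windows of 300 bases on GRCm38.p6, from 250 before to 50 after the start site, read 5′ to 3′ on the strand of the gene. Capitals mark TAATCC, the core bound by the photoreceptor homeodomain factors Crx and Otx2, and AGGTCA, the half-site bound by nuclear receptors such as those of the ROR family, each searched on both strands (also as GGATTA and TGACCT). No match of one motif overlapped a match of the other. The windows are chr6:29380464-29380763 (minus strand) for Opn1sw, chrX:74127216-74127515 (plus) for Opn1mw, chrX:100605247-100605546 (plus) for Arr3 and chr3:108092816-108093115 (plus) for Gnat2.
Opn1sw: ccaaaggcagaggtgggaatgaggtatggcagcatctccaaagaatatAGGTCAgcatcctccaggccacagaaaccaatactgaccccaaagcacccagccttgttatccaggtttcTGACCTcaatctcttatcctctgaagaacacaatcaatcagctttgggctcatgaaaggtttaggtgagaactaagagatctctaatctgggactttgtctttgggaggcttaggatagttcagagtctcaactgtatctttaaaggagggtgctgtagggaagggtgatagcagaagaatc
Opn1mw: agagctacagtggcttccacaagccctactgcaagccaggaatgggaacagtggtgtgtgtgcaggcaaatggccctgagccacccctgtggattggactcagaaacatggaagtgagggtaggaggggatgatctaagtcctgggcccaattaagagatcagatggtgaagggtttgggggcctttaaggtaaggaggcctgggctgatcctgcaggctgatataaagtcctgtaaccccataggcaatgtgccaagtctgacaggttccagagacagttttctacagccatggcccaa
Arr3: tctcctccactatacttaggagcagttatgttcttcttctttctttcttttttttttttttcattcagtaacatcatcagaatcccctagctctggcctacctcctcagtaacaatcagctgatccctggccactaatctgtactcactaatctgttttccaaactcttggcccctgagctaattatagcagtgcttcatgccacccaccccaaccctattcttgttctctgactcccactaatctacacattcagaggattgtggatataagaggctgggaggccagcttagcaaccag
Gnat2: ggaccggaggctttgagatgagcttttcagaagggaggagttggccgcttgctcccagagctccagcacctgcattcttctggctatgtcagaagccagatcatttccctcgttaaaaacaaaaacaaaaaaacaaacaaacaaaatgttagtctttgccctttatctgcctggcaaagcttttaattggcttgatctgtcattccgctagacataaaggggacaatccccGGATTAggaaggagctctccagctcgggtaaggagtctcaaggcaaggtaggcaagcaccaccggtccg

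The Opn1sw window held AGGTCA on both strands, the matches starting at positions −202 and −132 from the start site. In the Gnat2 window TAATCC was read on the opposite strand from −19. Of 6 cone genes with a window (the 4 printed, Pde6h and Cnga3), TAATCC was found in 1 and AGGTCA in 1. Among 6 rod counterparts with a window searched (Sag, Gnb1, Gngt1, Pde6b, Cnga1 and Cngb1), 4 held TAATCC and 3 held AGGTCA. Windows on chromosome 18, where Pde6a lies, were left out for the rod and cone genes but kept among all windows. Over all 32851 windows the shares were 7.06% and 16.3%. Gnb3, Gngt2, Pde6c and Cngb3 had no window.

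Of the transducin subunits, Gnb3 fell, while Gnat2 and Gngt2 did not pass. Gnat2, the alpha subunit that carries the signal from opsin to phosphodiesterase (Entrez 14686, chromosome 3, 108092789 to 108101432), had 7744, 9384 and 3833 in libraries 1, 2 and 3 labelled Zfp292-OE, against 12982 and 9320 in the controls. Library 2 was just above the lower control, so the groups overlapped. The log2 fold change was −0.75 (SE 0.33, 95% interval −1.49 to −0.02, unadjusted p = 0.045), and it did not pass at a limma adjusted p of 0.14. It passed only without library 2 labelled Zfp292-OE, narrowly (limma adjusted p = 0.050, range over 15 alternatives 0.0498 to 0.566).

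Gnb3, the beta subunit of cones, which ON bipolar cells also express (Entrez 14695, chromosome 6, 124834240 to 124840275), had 22593, 28340 and 30919 in libraries 1, 2 and 3 labelled Zfp292-OE, against 65831 and 53598 in the controls. Every library labelled Zfp292-OE lay well below both controls, and library 3 was the highest of the 3. The libraries labelled Zfp292-OE averaged 27284 ± 4262 (SD, n = 3) and the controls 59714 ± 8650 (SD, n = 2). Its log2 fold change of −1.13 (SE 0.17, limma adjusted p = 0.0023) was the most precise among the cone genes. The call held in 13 of 15 alternatives and was lost without control library 1 or 2 (limma adjusted p = 0.070 and 0.11, range 2.17e-08 to 0.112), where the log2 fold change was −0.99 and −1.28. Of 11 bipolar markers tested, 7 fell and 0 rose, while 7.38% of all genes tested fell and 10% rose. All 10 rod markers fell as well. The summed normalised count of the 11 bipolar markers was 5777 to 7453 in the libraries labelled Zfp292-OE and 27005 to 30954 in the controls. Bhlhe23, a factor of rod bipolar cells, was at 0 in library 3 labelled Zfp292-OE, and Vsx1 and Grm6 were at 0 in library 2. Vsx1 had 40.8 in library 3 and Grm6 35.4 in library 1. Prkca, Pcp2, Car8 and Gng13 did not pass, at log2 fold changes of −0.15, −0.35, −0.46 and −1.42. The part of bipolar cells in the fall of Gnb3 was not tested.

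Gngt2, the gamma subunit (Entrez 14710, chromosome 11, 95837216 to 95845734), had 73207, 67022 and 32074 in libraries 1, 2 and 3 labelled Zfp292-OE, against 43419 and 52399 in the controls. Libraries 1 and 2 stood above both controls and library 3 below both. Over all 5 libraries the log2 fold change was 0.18 (SE 0.30, 95% interval −0.49 to 0.85, limma adjusted p = 0.72). Without library 3 it was 0.55 and passed narrowly as higher (limma adjusted p = 0.048, range over 15 alternatives 0.0475 to 0.971). The sign turned when libraries were scaled to equal totals (−0.037), after quantile normalization (−0.17) and without library 1 labelled Zfp292-OE (−0.041).

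Both phosphodiesterase subunits were low and had lower means in the libraries labelled Zfp292-OE. Pde6c, the catalytic subunit (Entrez 110855, chromosome 19, 38132781 to 38183958), had 100, 167 and 74.3 in libraries 1, 2 and 3 labelled Zfp292-OE, against 325 and 536 in the controls. The groups were apart, with libraries labelled Zfp292-OE at 114 ± 48.0 (SD, n = 3) and controls at 430 ± 149 (SD, n = 2). Its log2 fold change came to −1.94 (SE 0.57, limma adjusted p = 0.044). This call held in 8 of 15 alternatives. It was lost without library 1 or 3 labelled Zfp292-OE and without either control (limma adjusted p = 0.091, 0.077, 0.13 and 0.29, range 0.00989 to 0.292). With the replicate number as a block the limma adjusted p was 0.081.

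Pde6h, the inhibitory subunit (Entrez 78600, chromosome 6, 136923832 to 136968865), had 309, 372 and 31.4 in libraries 1, 2 and 3 labelled Zfp292-OE, against 556 and 1204 in the controls. All libraries labelled Zfp292-OE lay below both controls, and library 3 lay far below the other two. The log2 fold change of −2.40 (SE 0.93, 95% interval −4.48 to −0.31) had a limma adjusted p of 0.11. It passed without library 2 labelled Zfp292-OE (limma adjusted p = 0.043, range over 15 alternatives 0.0431 to 0.535). The log2 fold change was −1.27 without library 3, −3.03 without library 2, −2.96 without control library 1 and −1.84 without control library 2. On the recovered reads edgeR gave −1.92 and DESeq2 −1.89. Exons of Pde6h share 136 bases with Arhgdib, a gene of leukocytes on the opposite strand, and whether counting used strand is not given in the sources used here. Arhgdib had 235, 360 and 24.1 in the libraries labelled Zfp292-OE, against 829 and 481 in the controls, so library 3 was lowest for it too.

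The channel subunits did not differ detectably. Cnga3, the alpha subunit that forms the cone channel (Entrez 12790, chromosome 1, 37214434 to 37263384), had 254, 168 and 123 in libraries 1, 2 and 3 labelled Zfp292-OE, against 78.5 and 339 in the controls. The controls lay outside the range of the other libraries on both sides. Its log2 fold change was 0.093 (95% interval −1.48 to 1.67, limma adjusted p = 0.94), an interval that spans from 0.358-fold to 3.17-fold. Cngb3, the modulatory beta subunit (Entrez 30952, chromosome 4, 19280850 to 19510623), had 2553, 3288 and 2531 in the libraries labelled Zfp292-OE, against 4880 and 2661 in the controls. Library 2 exceeded control library 2, so the groups overlapped, and the log2 fold change was −0.38 (95% interval −0.98 to 0.22, limma adjusted p = 0.36).

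Arr3, the cone arrestin that quenches the activated opsin (Entrez 170735, chromosome X, 100605497 to 100618493), fell in all 3 libraries. Its counts were 1921, 1509 and 336 in libraries 1, 2 and 3 labelled Zfp292-OE, against 7386 and 6484 in the controls. Even the highest library labelled Zfp292-OE lay far below the lower control. Libraries labelled Zfp292-OE averaged 1256 ± 823 (SD, n = 3) and controls 6935 ± 638 (SD, n = 2), and the log2 fold change was −2.80 (SE 0.59, limma adjusted p = 0.012). It was −2.02 without library 3. The call held in 13 of 15 alternatives and was lost without control library 1 or 2 (limma adjusted p = 0.19 and 0.23, range 7.06e-05 to 0.225), where the log2 fold change was −2.71 and −2.90.

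Per kilobase of annotated exon, Gngt2, Gnb3 and Opn1sw had the highest levels in both groups and Pde6c, Pde6h and Cnga3 were among the lowest. In the libraries labelled Zfp292-OE the levels per kilobase averaged 30599 for Gngt2, 14914 for Opn1sw, 10366 for Gnb3, 2333 for Gnat2, 593 for Cngb3 and 533 for Arr3. In the controls they averaged 25524 for Gngt2, 22688 for Gnb3, 17171 for Opn1sw, 3723 for Gnat2, 2945 for Arr3, 801 for Cngb3 and 363 for Opn1mw. The level per kilobase of Cnga3 averaged 46.0 and 52.7 in the libraries labelled Zfp292-OE and in the controls, that of Pde6c 38.4 and 145, and that of Pde6h 30.3 and 112. The rank of Pde6h depends on its annotated exon length of 7846 bases, the longest of the 10. Before division by length, its control mean of 880 was above those of Opn1mw (566) and Pde6c (430). Opn1mw ranked 10 of 10 in the libraries labelled Zfp292-OE (19.4 ± 19.6 per kilobase, SD, n = 3) and 7 of 10 in the controls (363 ± 261, SD, n = 2). Several neighbours in the control order overlapped between libraries, namely Gngt2 with Gnb3, Gnat2 with Arr3, and Opn1mw, Pde6c, Pde6h and Cnga3 each with the next. In the libraries labelled Zfp292-OE the overlapping neighbours were Gngt2, Opn1sw and Gnb3, then Cngb3 with Arr3, and then Cnga3, Pde6c, Pde6h and Opn1mw. With the longest transcript as the length, Gnb3 ranked above Gngt2 in the controls, and Arr3 above Cngb3 and Pde6h above Pde6c in the libraries labelled Zfp292-OE.

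The rod counterparts of the transducin, phosphodiesterase, channel and arrestin genes, 9 in all, fell, and the cone genes were compared with them pair by pair. Cngb1, the rod channel beta subunit, had 2305, 2588 and 2530 in libraries 1, 2 and 3 labelled Zfp292-OE, against 11594 and 11360 in the controls, a log2 fold change of −2.21 (limma adjusted p = 0.00025). Its values within each group were close together and the groups were far apart, while those of Cngb3 overlapped. The log2 fold changes of rod genes ran from −2.90 for Pde6a, a catalytic phosphodiesterase subunit, to −0.75 for Gnb1, a beta subunit found in many cell types. Their median was −2.03, against −0.94 for the cone genes. Pde6a held in 6 of 15 alternatives. With either control left out, 0 of the 9 rod genes passed in limma, at adjusted p-values between 0.054 and 0.22, and all 9 had an unadjusted p below 0.05.

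Within a library, the difference in log2 count between a cone gene and its rod counterpart does not depend on how the library was scaled, apart from the pseudocount of 1. For Gngt2 and Gngt1, libraries 1, 2 and 3 labelled Zfp292-OE had differences of 1.08, 1.59 and 0.93, against −1.11 and −0.90 in the controls. More reads were thus counted under Gngt2 than under Gngt1 in every library labelled Zfp292-OE, and fewer in both controls. The same order, all libraries labelled Zfp292-OE above both controls, held also for Gnat2 with Gnat1, Pde6c with Pde6a, Cnga3 with Cnga1 and Cngb3 with Cngb1, which makes 5 of 9 pairs. For Cngb3 with Cngb1 libraries labelled Zfp292-OE had a mean log2 difference of 0.16 ± 0.17 (SD, n = 3) and controls one of −1.67 ± 0.60 (SD, n = 2). In 2 pairs, Arr3 with Sag and Gnb3 with Gnb1, all libraries labelled Zfp292-OE lay below both controls, with differences between group means of −0.91 and −0.38. For Arr3 with Sag this came largely from library 3: the differences were −5.51, −5.68 and −7.56 in libraries 1, 2 and 3 labelled Zfp292-OE, against −5.40 and −5.28 in the controls, and −0.26 separated the means without library 3. For Gnb3 with Gnb1 the means were −0.23 to −0.50 apart with 1 library left out. In the other 2 pairs, Pde6c with Pde6b and Pde6h with Pde6g, the groups overlapped. Pde6c stood in 2 of the 9 pairs, and Pde6a had 22, 40 and 15 reads in the libraries labelled Zfp292-OE. Of 16316 single genes tested, 3959 had all libraries labelled Zfp292-OE above both controls and 4187 had all below. The share over other pairs of genes was not computed. An exact two-sided permutation test over libraries gave p = 0.2 for each of the 7 pairs without overlap, the smallest that 2 libraries against 3 allow, and 0.257 after Benjamini-Hochberg adjustment over the 9 pairs.

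**Figure D2:**
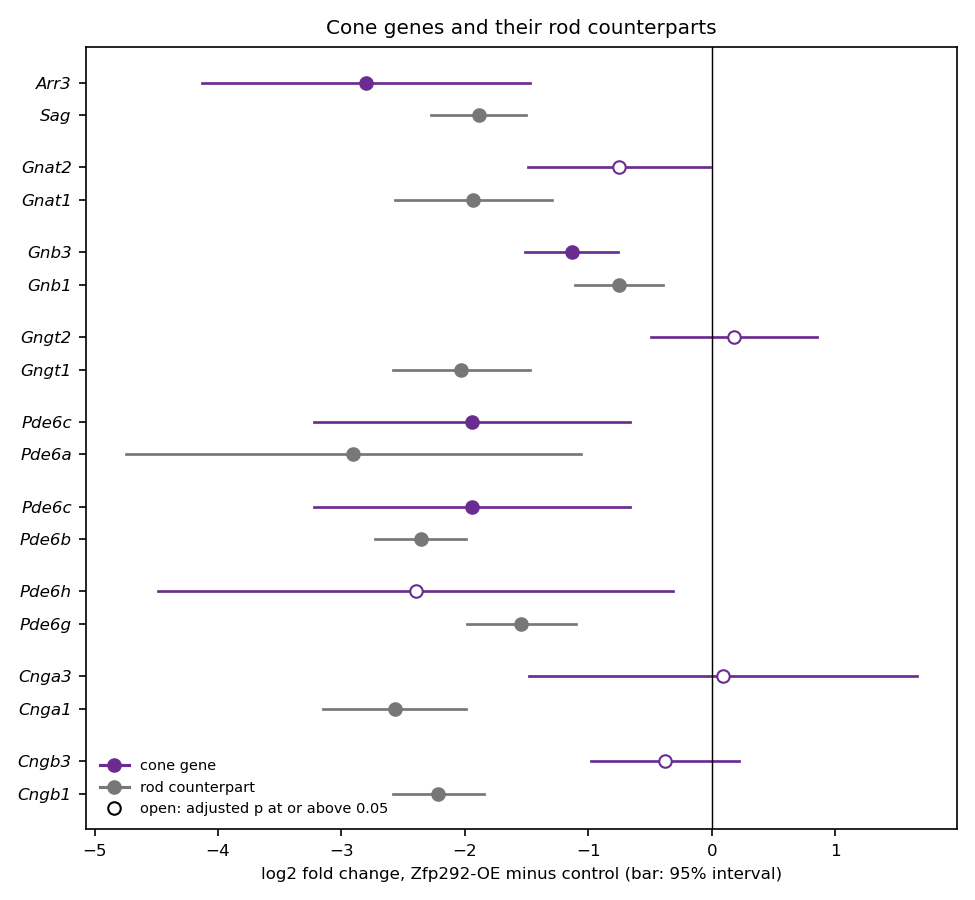
Log2 fold changes (libraries labelled Zfp292-OE minus control) of the cone genes other than the opsins, in purple, and of the rod counterpart below each, in grey, with 95% intervals from limma. Filled points passed at an adjusted p below 0.05. All rod genes are filled and below 0, from −2.90 for Pde6a to −0.75 for Gnb1, while the open cone genes Gngt2, Cnga3 and Cngb3 sit near 0.

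Stretches of identical sequence between these genes were short. The longest run of identical bases between the longest transcripts of a cone gene and its rod counterpart was 13 to 24 bases, and it was 17 between Opn1sw and Opn1mw. Opn1sw shares 397 of its 2557 exon bases with Calu, a calcium-binding protein gene on the opposite strand, and Gngt2 shares 234 of 1877 with Abi3, a gene of microglia. Calu had 41446, 48980 and 50598 in the libraries labelled Zfp292-OE, against 41965 and 28280 in the controls, and was therefore not low in library 3. Abi3 had between 6.58 and 50.8 in the 5 libraries, far below the counts of Gngt2.

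Library 3 labelled Zfp292-OE was lower than libraries 1 and 2 for 9 of the 10 cone genes, all but Gnb3. For Cngb3 the margin was slight, 2531 against 2553 in library 1. Among all genes tested, 35.0% were lowest in library 3 of the 3. The log2 difference between library 3 and the mean of libraries 1 and 2 had a median of −1.10 over the cone genes. It was −1.08 for Opn1sw, −1.13 for Gngt2, −1.15 for Gnat2, −2.34 for Arr3, −3.39 for Pde6h and −5.45 for Opn1mw. For Pde6c, Cnga3 and Cngb3 it was −0.79, −0.74 and −0.19, and for Gnb3 it was 0.29. It had a median of −0.37 over the rod counterparts, of which 6 of 9 were lowest in library 3, and of −0.0017 over all genes tested. Summed over the 10 cone genes, the normalised counts were 160514, 151143 and 91697 in libraries 1, 2 and 3 labelled Zfp292-OE, against 186188 and 164754 in the controls. The summed counts of the rod counterparts were 279887, 277677 and 222930 in the libraries labelled Zfp292-OE, against 812417 and 692529 in the controls. Both sums therefore lay below both controls in all 3 libraries labelled Zfp292-OE, and both were lowest in library 3. The cone sum came mostly from Gngt2, Opn1sw and Gnb3, so it says little of the other cone genes.

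Markers of some, not all, other cell types were lowest in library 3 of the libraries labelled Zfp292-OE, as were 35.0% of all genes tested. Among tested markers it was so for 3 of 11 bipolar, 1 of 3 endothelial and 1 of 3 pericyte markers. It was so for 5 of 8 progenitor and 4 of 6 pigment epithelium markers. Of 11 markers of microglia and other leukocytes, 10 were lowest in library 3 of the libraries labelled Zfp292-OE, and Csf1r and Ptprc, which define these cells, were at 0 reads there. Summed over the list, libraries 1, 2 and 3 labelled Zfp292-OE had 3456, 6064 and 949, against 3970 and 14623 in the controls. In limma 0 of the 11 passed, and 1 had an unadjusted p below 0.05, as had 5351 of all 16316 genes tested. All 6 proliferation markers were also lowest in library 3 of those libraries, with a median difference of −0.78. Of 8 markers of the pigment epithelium, Rpe65 and Tyr, which define it, were at or below 9.40 in every library, and 0 of the 6 tested passed in limma, where 1 had an unadjusted p below 0.05. The summed count of the 8 was 2485 to 3051 in the libraries labelled Zfp292-OE and 3182 to 3640 in the controls, mostly from Rgr, a photopigment gene that Müller glia also express. The part of these markers in the levels of the cone genes was not tested.

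**Figure D3:**
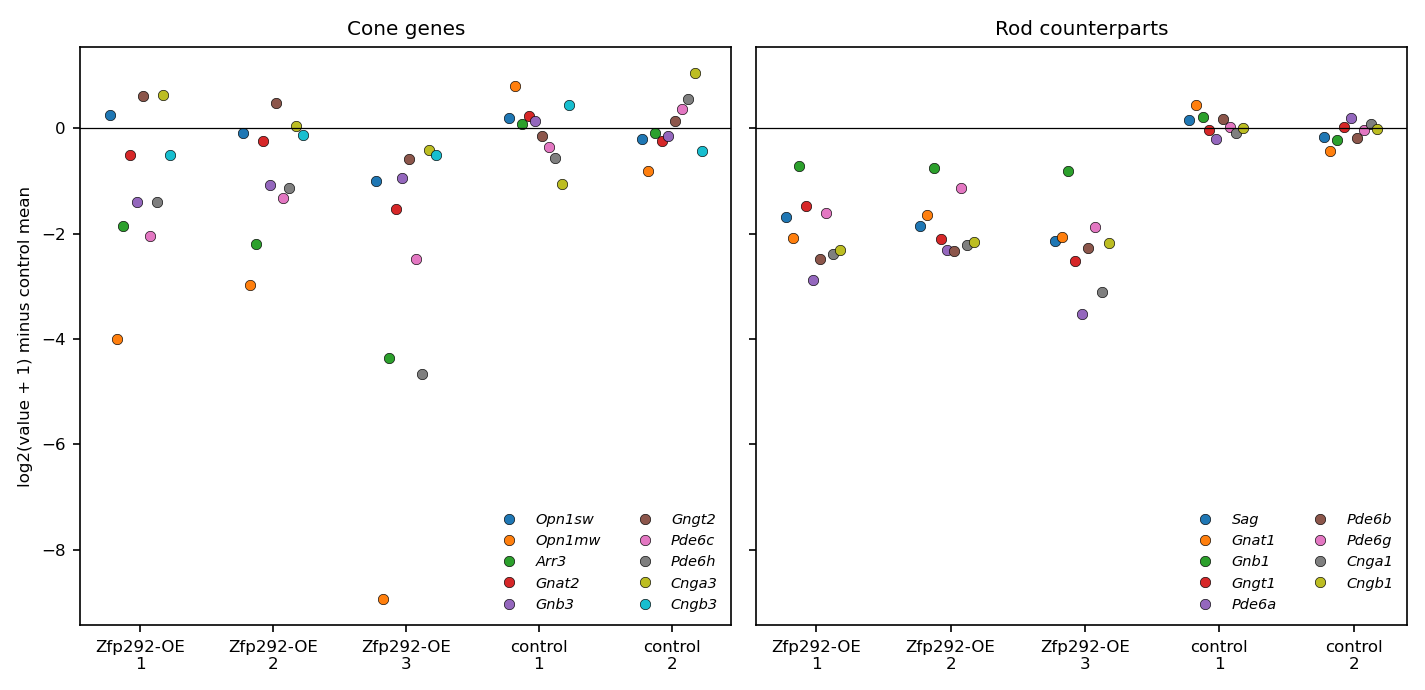
Log2(value + 1) of each cone gene (left) and each rod counterpart (right) in every library, minus that gene's control mean, so 0 is the mean of the controls. Points are single libraries and colours are genes. Rod genes lie between −3.52 and −0.70 in all 3 libraries labelled Zfp292-OE, while the cone genes spread from −8.93 to 0.64 and reach furthest down in library 3.

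By the likeness of their profile over the 5 libraries, the genes closest to the mean of the cone genes were Shroom3, Mc1r, Pcdh19, Snph and Gria1, with Pearson coefficients of 0.999, 0.998, 0.998, 0.998 and 0.997 among 14283 candidates. With so few libraries this ranks profiles and carries no test. Each of the 5 was lowest in library 3 labelled Zfp292-OE and highest in the controls, as was the mean profile by which they were picked. Of the candidates, 195 had a coefficient above 0.95. Snph, for example, had 145, 143 and 18.8 in libraries 1, 2 and 3 labelled Zfp292-OE, against 426 and 501 in the controls, and none of the 5 passed in limma (adjusted p between 0.063 and 0.16).

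Of 8 factors linked to cone fate or to cone gene expression, listed as cone fate factors, 2 fell, 0 rose and 6 did not pass. Over all genes 7.38% fell. The median log2 fold change of the 8 was −0.51. Those that fell were Pias3, a SUMO ligase that in photoreceptors modifies rod and cone factors, and the nuclear receptor Rora, at log2 fold changes of −1.43 and −0.59 (limma adjusted p = 0.0011 and 0.047). Rora held in 10 of 15 alternatives. Thrb, the thyroid hormone receptor needed for M opsin, had 1920, 1071 and 1054 in libraries 1, 2 and 3 labelled Zfp292-OE, against 1917 and 1982 in the controls. Library 1 was level with the controls and the other two were lower, and the log2 fold change was −0.59 (95% interval −1.26 to 0.08, limma adjusted p = 0.21). Rxrg, a retinoid receptor of cones that represses S opsin in the mouse, had 3290, 3978 and 3697 in the libraries labelled Zfp292-OE, against 4983 and 3876 in the controls, with a log2 fold change of −0.27 (95% interval −0.70 to 0.16, limma adjusted p = 0.36). Sall3, a zinc finger factor of cones and horizontal cells, had 168, 289 and 228 in the libraries labelled Zfp292-OE, against 341 and 646 in the controls, with a log2 fold change of −1.07 (limma adjusted p = 0.15).

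Of 13 factors of photoreceptors in general, 5 fell, 0 rose and 8 did not pass, beside the 7.38% of all genes that fell. The log2 fold changes were −1.70 and −1.53 for the rod factors Nr2e3 and Nrl, −1.27 for Samd7, a repressor in rods, −0.97 for the MADS-box factor Mef2d and −1.01 for Crx. Crx, the homeobox factor of both rods and cones, had 20145, 21076 and 27099 in libraries 1, 2 and 3 labelled Zfp292-OE, against 45024 and 45897 in the controls. It was highest in library 3 of the 3, as was Gnb3 but none of the other cone genes. Otx2, which acts before Crx, had 117569, 134300 and 203715 in the libraries labelled Zfp292-OE, against 156329 and 110863 in the controls, and a log2 fold change of 0.17 (95% interval −0.36 to 0.69, limma adjusted p = 0.67). Only 1 of the 13 was lowest in library 3.

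Genes of recovery and calcium feedback, most of which rods and cones share, fell in part. Of 22 tested, 13 fell, 0 rose and 9 did not pass, with a median log2 fold change of −1.33. Over all genes tested, 7.38% fell. Those with the smallest p were the lipid-binding chaperone Unc119 (−1.22), the retinoid carrier Rbp3 (−1.43), the potassium channel subunit Kcnv2 (−1.88), the phosphatase Ppef2 (−1.44), Rgs9bp, which anchors the complex that shuts off transducin (−2.41), and the calcium sensor Rcvrn (−2.09). Unc119 had 59991, 59583 and 60530 in libraries 1, 2 and 3 labelled Zfp292-OE, against 146348 and 133222 in the controls. Of 10 further genes that cones use, 6 fell, 0 rose and 4 did not pass, beside the same 7.38% of all genes. The log2 fold changes were −2.06, −1.67 and −1.96 for the outer segment genes Rp1, Rom1 and Prph2, −1.89 for the photoreceptor gene Tulp1, and −1.39 and −2.31 for the synaptic calcium channel subunits Cacna2d4 and Cacna1f. These shared genes are also expressed by rods, so their values do not separate the cell types.

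**Figure D4:**
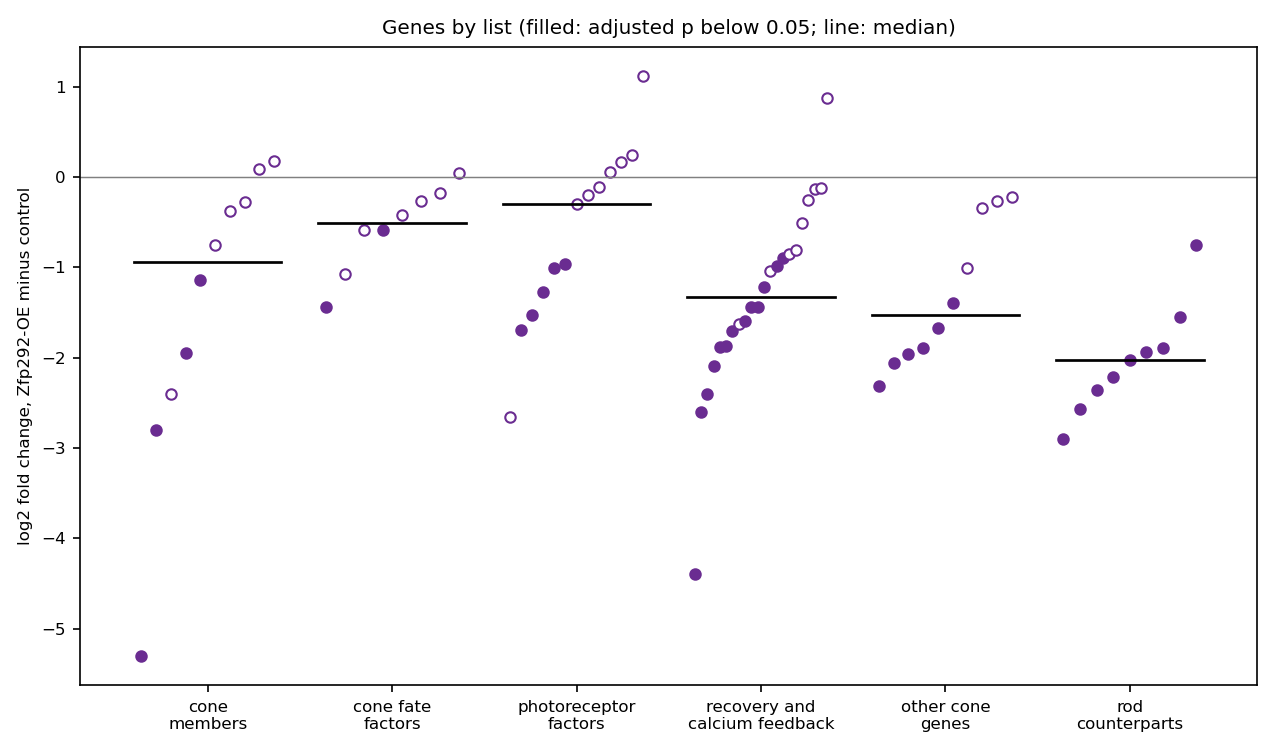
Log2 fold changes (libraries labelled Zfp292-OE minus control) of every tested gene in 6 lists, ordered within each list, with filled points for an adjusted p below 0.05 in limma and lines at the medians. The median of the cone genes, −0.94, lies between those of the cone fate factors, −0.51, and of the rod counterparts, −2.03.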

How the data were processed

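Messenger RNA was sequenced in 5 libraries, from 1.3 µg of total RNA each, per the labels' protocols. The authors deposited a signal per gene that is a scaled read count: in each library 100% of the values were whole multiples of what 1 read is worth, within 1e-06. Builds GRCm38 and mm10 are named in the submitters' processing notes. The aligner, counter, annotation, strand setting and scaling method were each not given in the sources used here. The table held 0 columns of other samples, and 18 genes had an Entrez identifier but no symbol.

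The 16316 genes whose mean was 10 or more entered limma 3.58.1 under R 4.3.3, with a mean-variance trend, as log2(value + 1), without a replicate block, adjusted over all of them by Benjamini-Hochberg with a threshold of 0.05. Fold changes are on that scale, where the pseudocount pulls those of low genes toward 0 and a library near 0 reads weighs heavily. edgeR 4.0.16 and DESeq2 1.42.0 on the recovered whole reads were alternatives, and edgeR called 2621 genes in all. Other alternatives changed the pseudocount, the filter, the scaling, the replicate block and the libraries included. The main limma fit, edgeR and DESeq2 were run on simulated data with all 5 libraries, and the other alternatives were not. For limma the simulated counts were scaled by known library sizes, while the scaling of the deposited values is not known. The outcome of these runs is not reported here. Exons, lengths and gene coordinates came from GENCODE M21 on GRCm38, and promoters from RefSeq on GRCm38.p6. The planned comparison of proteins was not run, and runs shared by transcripts were measured in its place.

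The 10 genes, the lists and the tests were chosen with earlier results of these data known. All 10 members, their rod counterparts, up to 6 called genes of each list and 5 genes of like profile were named by rule. Thrb, Rxrg, Sall3 and Otx2 were named after their values were seen. Some listed genes are not reported here.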

Additional observations from a re-analysis of the deposited data

How the results depend on the processing

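The 10 cone genes gave 4 calls in limma, and between 2 and 4 in the alternatives that kept all libraries, with 2 (Gnb3 and Arr3) without a filter and 2 after quantile normalization. Leaving out 1 library at a time gave 0 to 6 calls among them, and 1 to 2352 among all genes, against 2836 with all 5. Where a control is left out, the lone control is assumed to vary like the other libraries. The 9 rod counterparts gave 8 or 9 calls in every alternative but those without a control, which gave 0.

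With equal totals the median over all genes was −0.27, against −0.058 as deposited, and 912 genes were called higher and 1985 lower, against 1632 and 1204. All 10 cone genes were then below 0, with a median of −1.16.

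Signs turned for genes without a call. Opn1sw was at 0.080 with the replicate block, and from −0.54 to 0.080 over the fits that left out 1 library, above 0 only without library 3 labelled Zfp292-OE. Gngt2 was at −0.037 with equal totals and −0.17 after quantile normalization, and from −0.041 (without library 1 labelled Zfp292-OE) to 0.55 with 1 library left out. Cnga3 was at −0.12 with equal totals, −0.23 in edgeR and −0.20 in DESeq2, and from −0.96 to 1.14 with control library 1 or 2 left out. Cngb3 ran from −0.82 to 0.058, above 0 only without control library 1. Otx2 was at −0.051 with equal totals, −0.080 after quantile normalization and −0.067 with the block, and from −0.083 to 0.41 with 1 library left out. Zfp292 was at −0.17 with equal totals, −0.21 after quantile normalization and −0.011 with the block, and from −0.033 to 0.12 with 1 library left out. The cause was not tested.

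The labels share replicate numbers but nothing says that these mark a shared animal or day, and deviations of same-numbered libraries correlated at −0.039 and −0.027 across genes. With the replicate number as a block, where library 3 labelled Zfp292-OE has no partner and adds nothing, limma called 2498 genes and 3 cone genes (Opn1mw, Gnb3 and Arr3, without Pde6c). Depth limits Opn1mw above all, with 0 to 65 reads in the libraries labelled Zfp292-OE.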
